A study of Homo sapiens with 59 samples.

Results

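H3K27me3, the trimethyl mark on lysine 27 of histone H3, was mapped in parental NCI-H661 cells treated with A-485 or with DMSO, to ask whether blocking p300/CBP acetylation lets the mark spread or leaves it where it was. The libraries were taken by target, line and treatment from the sample labels, which gave 6 of the 59 samples of the series, 3 with A-485 and 3 with DMSO, numbered replicates 2, 3 and 4 in each treatment. NCI-H661 is a large cell carcinoma line of the human lung that is described as lacking SMARCA4, and all 6 libraries came from it with no knockout, no shRNA and its own DPPA2 and DPPA4. A-485 is a catalytic inhibitor of the acetyltransferases p300 and CBP. It was given at 10 µM for 1 day, and DMSO is its solvent, given for the same 1 day. The assay was ChIP-Rx-seq, chromatin immunoprecipitation in which mouse chromatin is added to each sample as a spike-in, and each library was deposited as a list of enriched domains called against an input. The labels give replicate numbers and do not say that the cultures were separate, so the p-values below measure the spread between these samples.

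H3K27me3 is written by Polycomb repressive complex 2 (PRC2), whose catalytic subunit is EZH2 and whose core subunits include SUZ12 and EED. It covers silent genes for developmental transcription factors in domains that can run over many kilobases, most of them at CpG-rich promoters. p300 and CBP place acetyl groups on the same lysine, and one residue cannot carry both marks, so acetylation at active enhancers and promoters and trimethylation at silent genes occupy separate parts of the genome.

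Before the comparison, DMSO replicate 4 stood apart. Its domains held 498618 ChIP reads, against 12005354 and 9908533 in DMSO replicates 2 and 3, while the A-485 libraries held 4986389, 5979141 and 1516111 in replicates 2, 3 and 4. Its median overlap with the other 5 libraries, as bases shared over bases covered by either (the Jaccard index), was 0.0684, that of A-485 replicate 4 was 0.180, and those of the other 4 libraries lay between 0.440 and 0.472. The library totals that could be recovered from the listed enrichments did not set it apart, at 0.450, 0.477 and 0.479 of the DMSO replicate 2 total for A-485 replicates 2, 3 and 4, against 0.620 and 0.433 for DMSO replicates 3 and 4. All 3 A-485 lists shared the counts of a single input and all 3 DMSO lists those of another. At domains with the same borders the A-485 input held a median of 0.797 times the reads of the DMSO input (range 0.749 to 0.819, 9 pairs of lists), so that treatment and input cannot be told apart. Results are therefore given with all 6 libraries and, where it matters, without replicate 4.

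H3K27me3 domains covered less of the genome with A-485 in the pairs of replicates 2 and 3 and more in the pair of replicate 4. Kept domains were those with a log2 enrichment over input above 1 and a false discovery rate under 0.05. With A-485 they covered 167, 200 and 61.4 Mb in replicates 2, 3 and 4, against 244, 284 and 22.0 Mb with DMSO. The A-485 libraries thus covered 68.5% and 70.4% of the DMSO length in the deeper pairs, and 2.79 times as much in the pair that holds DMSO replicate 4. The mean was 143 ± 72.6 Mb with A-485 and 183 ± 141 Mb with DMSO (SD, n = 3 each), a difference smaller than the spread of either treatment (p = 0.5, exact two-sided sign-flip permutation test over 3 pairs, which cannot go below 0.25). As a share of the genome, the A-485 domains made up 5.41%, 6.49% and 1.99%, against 7.90%, 9.21% and 0.712% with DMSO.

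The domains were also shorter with A-485 in the deeper pairs, and held fewer raw reads per kb. Their median width was 800, 900 and 700 bp with A-485, against 900, 1200 and 700 bp with DMSO in replicates 2, 3 and 4. Domains of at least 10 kb, the long Polycomb domains, numbered 382, 660 and 11 with A-485, against 1327, 1979 and 1 with DMSO. They made up 3.32%, 5.15% and 0.222% of the covered length with A-485, against 8.65%, 11.2% and 0.0473% with DMSO. Reads per kilobase of domain were 29.8, 29.9 and 24.7 with A-485, against 49.2, 34.8 and 22.7 with DMSO. These counts are not scaled for depth. They stood at 0.606, 0.857 and 1.09 times the DMSO value in replicates 2, 3 and 4. The recovered library totals stood at 0.450, 0.769 and 1.11 times, so the density in replicates 2 and 3 was lowered by less than the total. The part of depth in density and width was not tested. In replicates 2 and 3, width, long domains and raw read density thus lay lower with A-485. In replicate 4 the raw density and the long domains lay the other way (p = 0.5 for each of the 3 measures, exact sign-flip permutation test).

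**Figure D1:**
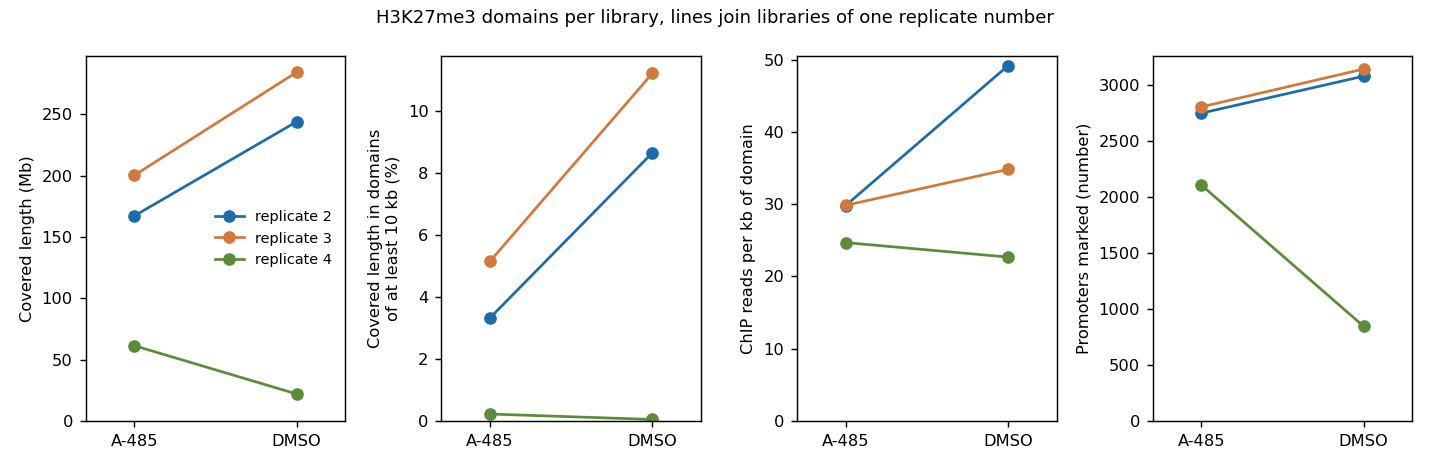
Covered length (Mb), share of it in domains of at least 10 kb (%), ChIP reads per kb of domain and number of marked promoters in each H3K27me3 library, A-485 left of DMSO, 1 point per library and 1 line per replicate number. The lines of replicates 2 and 3 lie lower at A-485 in every panel, and that of replicate 4 lies higher, with 61.4 against 22.0 Mb covered.

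The enrichment over input had the same direction in all 3 pairs. The median log2 enrichment of kept domains over input was 2.43, 2.37 and 2.05 with A-485, against 2.07, 2.19 and 1.92 with DMSO, a mean difference of 0.22 (p = 0.25, exact sign-flip permutation test, the smallest that 3 pairs allow). This value is taken against the input, which differed between the treatments as given above, and the part of the input in the difference was not tested. Promoter windows, the 1500 bp on either side of the start of each of 20007 protein-coding genes, held 2.90%, 2.76% and 4.39% of the covered length with A-485, against 2.6%, 2.42% and 3.66% with DMSO. This share was higher with A-485 in 3 of 3 pairs (p = 0.25, exact sign-flip permutation test).

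The part of the DMSO territory that the A-485 libraries did not cover was mostly short and thinly read. In all, 54.0% and 56.9% of the DMSO bases lay under A-485 domains in replicates 2 and 3. The Jaccard index of these 2 pairs was 0.472 and 0.501. It was 0.446 between A-485 replicates 2 and 3, and 0.561 between DMSO replicates 2 and 3. The part of disagreement between replicates in what follows was not tested. Of the bases in DMSO domains under 1 kb, the A-485 library of the same number covered 27.3%, 30.7% and 29.5% in replicates 2, 3 and 4. Of DMSO domains of 1 to 3 kb it covered 47.4%, 44.3% and 45.0% of the bases, and of those of 3 to 10 kb 73.1%, 72.7% and 78.0%. The long domains of at least 10 kb kept 88.7% and 89.1% of their bases in replicates 2 and 3. The gradient by width was thus alike in all 3 pairs, also in the pair with the weak DMSO library, whose class of 3 to 10 kb held 118 domains.

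Ranking by read density gave a like order in all 3 pairs. Ranked by enrichment, the highest class was covered more than the lowest in replicates 2 and 3, and less in replicate 4. When the DMSO domains of a library were split into 4 equal classes by reads per kb, of the bases in the class with the fewest, 20.3%, 21.6% and 24.5% lay under A-485 domains in replicates 2, 3 and 4, and of those in the densest class 77.1%, 80.4% and 47.5%. By the log2 enrichment of the DMSO domain over input, 39.3%, 38.6% and 41.1% of the bases of the lowest class lay under A-485 domains, and 58.8%, 65.0% and 26.9% of those of the highest class, so that replicate 4 ran the other way. Density itself varied with width. It was 26.3, 27.6, 36.9 and 53.1 reads per kb from the narrowest to the widest class in A-485 replicate 2, against 40.6, 43.0, 55.6 and 78.9 in DMSO replicate 2. In A-485 replicate 4 and DMSO replicates 3 and 4 it was a little lower at 1 to 3 kb than under 1 kb, while domains of 3 kb and over were the densest in all 6 libraries. In the opposite direction, 78.8%, 80.8% and 12.7% of the bases of A-485 domains lay under DMSO domains of the same number. The A-485 territory of replicates 2 and 3 was therefore largely nested inside that of DMSO. That of A-485 replicate 4 was not nested inside the weak DMSO replicate 4, but 75.9% and 80.0% of it lay under DMSO replicates 2 and 3.

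**Figure D2:**
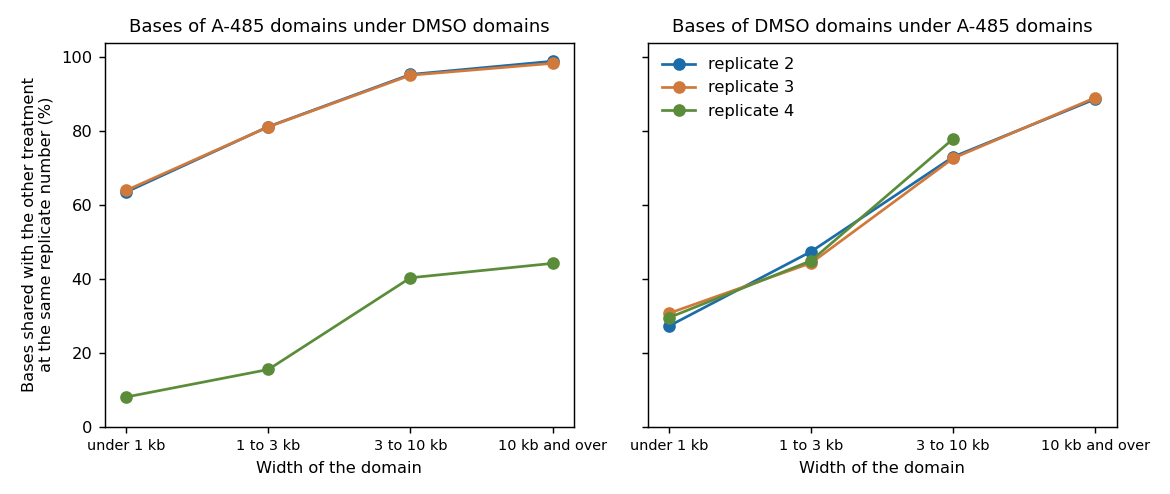
Share of the bases of A-485 domains that lay under DMSO domains (left) and of DMSO domains that lay under A-485 domains (right), in %, by the width of the domain, 1 line per pair of the same replicate number. Sharing increased with width in every pair, with 27.3% to 30.7% of DMSO bases kept under 1 kb and 88.7% and 89.1% at 10 kb and over; the single DMSO replicate 4 domain of that width is left out.

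Long DMSO domains were present with A-485 as several pieces. The 1327 and 1979 long domains of DMSO replicates 2 and 3 overlapped a median of 4 A-485 domains each, and 5.35% and 5.51% of them overlapped a single one. The largest A-485 piece had a median of 45.5% and 49.1% of the DMSO width. Conversely, the 382 and 660 long A-485 domains overlapped a median of 1 DMSO domain, and 91.9% and 91.5% of them met a DMSO domain that was itself at least 10 kb. When domains within 3000 bp of each other were joined, those of at least 10 kb made up 60.5%, 64.2% and 34.2% of the covered length with A-485, against 67.5%, 70.6% and 21.0% with DMSO. After joining, the share thus still lay lower with A-485 in replicates 2 and 3 and higher in replicate 4. The part of read depth in how the caller split these domains was not tested.

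Most promoters that carried the mark with DMSO carried it with A-485 too. A promoter was called marked when at least 300 bp of its window lay under kept domains. By this rule 2751, 2807 and 2108 promoters were marked with A-485, against 3082, 3146 and 845 with DMSO, 2555 ± 388 and 2358 ± 1310 on average (SD, n = 3 each; p = 1, exact sign-flip permutation test). Of the promoters marked with DMSO, 83.2%, 84.6% and 82.8% were also marked by the A-485 library of the same number. Those marked with DMSO alone held a median of 800, 910 and 600 bp of domain in the DMSO library, against 2500, 2662 and 800 bp for those marked in both. In all, 640 promoters were marked in all 6 libraries, 2337 in the 4 libraries of replicates 2 and 3, and 16287 in none.

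Most of the 640 promoters marked in every library also had SUZ12, and carried the mark in other libraries. SUZ12, the PRC2 subunit mapped in DMSO replicate 3, had a peak at 91.7% of them, at 74.7% of the 2337 and at 1.56% of the unmarked 16287. H3K27me3 in 6 libraries of shRNA lines given H2O, which took no part in the choice, covered 90.5% of the 640 in every library, against 0.117% of the unmarked. H3K4me3, a mark of promoters that are active or poised, was present in all 6 H2O libraries at 70.2% of the 640 and 72.8% of the unmarked. H3K27ac was present in both DMSO libraries at 4.53% of the 640 and 69.1% of the unmarked. It was present in neither at 41.4% of the 640 and 18.4% of the unmarked, so many of the 640 had it in 1 of the 2. The 2 lists covered 44.7 and 153 Mb in replicates 2 and 4, and that of replicate 4 carried the input of the other treatment, as given below. A median of 24 CG dinucleotides lay in the 300 bases from 250 before to 50 after the start for both the 640 and the unmarked promoters, of 21 for the 2337 and of 16 for the 3080 marked in 1 to 5 libraries.

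Promoters marked in all libraries of one treatment and none of the other were few. Such loss with A-485 was found at 4 promoters (0.0200% of the 20007) and such gain at 5 (0.0250%), and no test applies to these counts. VWC2L, which encodes a secreted protein with von Willebrand factor C domains, had 0 bp of domain in all 3 A-485 libraries, against 500, 900 and 300 bp with DMSO in replicates 2, 3 and 4. CORO2B, a coronin that binds actin, had 0 bp in all 3 A-485 libraries, against 700, 1208 and 700 bp with DMSO. TAAR9, a trace amine receptor, had 24, 0 and 0 bp with A-485, against 324, 1524 and 777 bp with DMSO. CXCL13, a chemokine that attracts B cells, had 0, 81 and 0 bp with A-485, against 481, 681 and 720 bp with DMSO. All 4 promoters thus held partial domains in DMSO cells and next to none with A-485, and the values were the same when domains that fail the enrichment filter were added back.

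At the promoters gained with A-485 the filter mattered more. CYP3A4, the liver cytochrome P450 that clears many drugs, had 1000, 1784 and 700 bp with A-485, against 117, 17 and 0 bp with DMSO. With every listed domain counted, however, its DMSO libraries held 2417, 2501 and 0 bp. NRIP1, a corepressor of nuclear receptors, had 1100, 800 and 800 bp with A-485, against 200, 0 and 0 bp with DMSO, and 600, 1301 and 0 bp with DMSO over all listed domains. NAT16, an N-acetyltransferase gene, had 1200, 900 and 600 bp with A-485, against 0 bp in all 3 DMSO libraries. KCNAB1, a potassium channel beta subunit, had 600, 1100 and 700 bp with A-485, and TAS2R1, a bitter taste receptor, had 1000, 500 and 600 bp, against 0 bp for both genes in all DMSO libraries. Over all listed domains DMSO replicate 2 held 723 bp at KCNAB1 and 1200 bp at TAS2R1. NAT16 was thus the single gained promoter of these 5 with nothing listed in any DMSO library. Without replicate 4, 131 promoters (0.655%) were marked in both DMSO and no A-485 library, and 23 (0.115%) the other way.

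The 9 promoters that switched by kept domains ranged from none to many CG. Of these, 6 are printed, rich and poor in each direction, beside IRX2, marked throughout. Which promoters switched changed with the setting, as given in the section on processing. Each sequence runs from 250 bases before to 50 after the RefSeq start on the gene's strand, 5′ to 3′, on GRCh38.p14, with each CG in capitals. CG reads the same on both strands. It occurs at least once in 95.8% of the 27305 RefSeq promoters of this length, with a median of 14. IRX2, a homeobox factor marked in all 6 libraries, lies at chr5:2751628-2751927 on the minus strand and holds 34 CG, a number that 15.3% of promoters reach. CORO2B, marked with DMSO alone, lies at chr15:68578743-68579042 on the plus strand with 33. VWC2L, also marked with DMSO alone, lies at chr2:214410804-214411103 on the plus strand with 10. TAAR9, the third shown of those marked with DMSO alone, lies at chr6:132538027-132538326 on the plus strand with 1. NRIP1, marked with A-485 alone, lies at chr21:15064951-15065250 on the minus strand with 32. CYP3A4 at chr7:99784135-99784434 and TAS2R1 at chr5:9630302-9630601, both on the minus strand, hold 0 and 1, and 11.5% of promoters hold 1 or none. CYP3A4, TAS2R1 and NRIP1 were marked with A-485 alone by kept domains, while DMSO lists held domains at each below the filter.
IRX2: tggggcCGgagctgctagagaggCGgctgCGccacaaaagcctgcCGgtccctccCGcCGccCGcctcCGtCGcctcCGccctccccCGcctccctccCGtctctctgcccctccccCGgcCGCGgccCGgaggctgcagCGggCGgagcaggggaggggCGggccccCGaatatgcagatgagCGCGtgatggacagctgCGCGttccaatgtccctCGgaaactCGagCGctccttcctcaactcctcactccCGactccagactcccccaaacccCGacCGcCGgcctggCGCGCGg
CORO2B: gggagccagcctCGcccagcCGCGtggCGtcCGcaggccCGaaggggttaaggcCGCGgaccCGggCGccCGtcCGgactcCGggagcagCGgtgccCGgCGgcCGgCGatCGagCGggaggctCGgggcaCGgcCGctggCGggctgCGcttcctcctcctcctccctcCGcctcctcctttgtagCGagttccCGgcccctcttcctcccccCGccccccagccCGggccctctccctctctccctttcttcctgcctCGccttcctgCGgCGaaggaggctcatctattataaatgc
VWC2L: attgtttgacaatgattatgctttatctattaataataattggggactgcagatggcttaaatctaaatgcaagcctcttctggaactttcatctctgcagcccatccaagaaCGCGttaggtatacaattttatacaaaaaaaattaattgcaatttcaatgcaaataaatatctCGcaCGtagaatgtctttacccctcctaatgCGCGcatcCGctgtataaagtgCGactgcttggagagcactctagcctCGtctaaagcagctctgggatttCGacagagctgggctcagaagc
TAAR9: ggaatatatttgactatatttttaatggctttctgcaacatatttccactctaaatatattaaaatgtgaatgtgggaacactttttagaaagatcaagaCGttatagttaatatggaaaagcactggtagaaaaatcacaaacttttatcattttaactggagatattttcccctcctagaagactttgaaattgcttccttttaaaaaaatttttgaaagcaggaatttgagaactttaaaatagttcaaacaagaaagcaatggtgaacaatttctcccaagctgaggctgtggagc
NRIP1: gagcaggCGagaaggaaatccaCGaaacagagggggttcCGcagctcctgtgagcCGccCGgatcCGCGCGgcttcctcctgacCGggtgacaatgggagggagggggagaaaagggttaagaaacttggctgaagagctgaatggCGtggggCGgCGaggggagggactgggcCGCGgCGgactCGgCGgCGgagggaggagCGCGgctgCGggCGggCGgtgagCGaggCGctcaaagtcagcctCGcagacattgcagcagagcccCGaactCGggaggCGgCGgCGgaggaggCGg
CYP3A4: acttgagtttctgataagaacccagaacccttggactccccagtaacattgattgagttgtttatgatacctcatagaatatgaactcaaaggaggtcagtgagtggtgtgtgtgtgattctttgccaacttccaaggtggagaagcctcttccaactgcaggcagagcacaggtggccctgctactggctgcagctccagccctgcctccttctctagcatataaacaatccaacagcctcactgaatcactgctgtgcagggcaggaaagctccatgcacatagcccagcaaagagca
TAS2R1: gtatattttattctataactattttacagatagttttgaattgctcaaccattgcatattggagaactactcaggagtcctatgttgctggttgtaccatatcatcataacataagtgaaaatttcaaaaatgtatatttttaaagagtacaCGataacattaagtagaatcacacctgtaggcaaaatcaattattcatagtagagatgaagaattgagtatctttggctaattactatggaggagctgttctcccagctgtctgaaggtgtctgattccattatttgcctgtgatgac
Of the others, NAT16 holds 33 in the same window around the GENCODE start, KCNAB1 5 and CXCL13 0, so CG-rich and CG-poor promoters switched in both directions. Over the sets of replicates 2 and 3, the median CG number in such windows was 10 for the 131 promoters marked with DMSO alone and 5 for the 23 marked with A-485 alone, against 23 for all 20007 promoters. SUZ12 had a peak at 28.2% of the 131 and 30.4% of the 23, against 12.2% of all 20007. H3K27me3 covered 19.1% and 17.4% of them in all 6 H2O libraries, against 8.72% of all 20007. By median and share, both sets thus had fewer CG and less SUZ12 than the 2337 promoters marked in both treatments, whose median was 21 CG. Both had more SUZ12 and more of the mark in H2O libraries than all promoters.

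Genes of developmental control carried the mark in both treatments. Over all 20007 promoters, 13.8%, 14.0% and 10.5% were marked with A-485, against 15.4%, 15.7% and 4.22% with DMSO, and the lists are read against these shares. For single genes in the lists, the values that follow are the percentage of the promoter window under kept domains. Homeobox genes outside the HOX clusters, which pattern the nervous system and organs, had 37, 34 and 32 of 65 promoters marked with A-485, against 36, 37 and 16 with DMSO. GSX2, a forebrain homeobox factor, had its whole window covered in all 6 libraries. IRX4, a heart homeobox factor, had 93.3%, 93.3% and 100% of the window covered with A-485, against 100%, 100% and 90.8% with DMSO. NKX2-1, a regulator of lung and thyroid, had 100% in every library except DMSO replicate 4, which had 0%. Where a member of the list was marked in 5 libraries, DMSO replicate 4 was most often the one without it, and no member was marked in all libraries of one treatment and none of the other.

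HOX genes, the clusters that set position along the body axis, had 11, 13 and 12 of 39 promoters marked with A-485, against 12, 12 and 4 with DMSO. HOXD13, a limb patterning gene, had 93.3%, 93.3% and 66% with A-485, against 92.6%, 100% and 63.3% with DMSO. HOXD11, from the same cluster, had 13.3%, 13.3% and 40% with A-485, against 50%, 87.3% and 33.3% with DMSO. These genes, with HOXD9 and HOXA13, were marked in all 6 libraries. The marked HOX genes lay in the HOXA and HOXD clusters apart from HOXB8, and none of the HOXC genes was marked in any library.

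The PAX, SOX, FOX, TBX and GATA factors, regulators of tissue identity, had 32, 29 and 24 of 54 promoters marked with A-485, against 29, 31 and 5 with DMSO. SOX9, a regulator of cartilage and testis, had 96%, 100% and 76% with A-485, against 100%, 100% and 50% with DMSO. FOXB1 had 93.3%, 100% and 63.7% with A-485, against 100%, 100% and 33% with DMSO. Neuroendocrine genes were marked at 12, 13 and 12 of 20 promoters with A-485, against 13, 14 and 3 with DMSO. NEUROD1, a neuronal differentiation factor, had 100%, 100% and 83.3% with A-485, against 100%, 100% and 57.2% with DMSO. Both lists thus had similar numbers in the deeper pairs and a low number in DMSO replicate 4.

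Signalling and adhesion genes followed the same pattern. Of 48 promoters of Wnt ligands, receptors and antagonists, 19, 17 and 19 were marked with A-485, against 19, 20 and 8 with DMSO. WNT16, a Wnt ligand, had 73.3%, 83.3% and 93.3% with A-485, against 93.3%, 100% and 60% with DMSO, and SFRP1, a secreted Wnt antagonist, had 100%, 100% and 86.7% with A-485, against 100%, 100% and 0% with DMSO. Axon guidance and neuronal adhesion genes were marked at 24, 24 and 17 of 42 promoters with A-485, against 26, 27 and 10 with DMSO. SEMA5A, a semaphorin, had 100%, 100% and 93.3% with A-485, against 100%, 100% and 13.3% with DMSO.

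Of the lists for other cell lineages, some lay above the share over all promoters and others near it. Mesenchymal and EMT genes had 9, 9 and 7 of 25 promoters marked with A-485, against 9, 9 and 8 with DMSO, the list in which DMSO replicate 4 came nearest to the others. PDGFRA, a growth factor receptor of mesenchymal cells, had 100% in all 3 A-485 libraries, against 100%, 100% and 83.3% with DMSO. The muscle, liver and pancreas list had 11, 10 and 9 of 30 marked with A-485, against 11, 13 and 2 with DMSO, and CYP3A4 was its single member gained. MYF5, a muscle determination factor, had 100%, 93.3% and 82.9% with A-485, against 100%, 100% and 0% with DMSO. Blood cell genes had 6, 7 and 5 of 30 marked with A-485, against 5, 7 and 0 with DMSO, led by IKZF1, a lymphoid factor. The lung epithelial list had 3, 5 and 4 of 25 marked with A-485, against 5, 4 and 2 with DMSO, or 12.0%, 20.0% and 16.0% with A-485, against 20.0%, 16.0% and 8% with DMSO, near the shares over all promoters. Its most covered member was KRT5, the keratin of airway basal cells, with 93.5%, 93.5% and 66.4% with A-485, against 100%, 93.3% and 0% with DMSO.

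Gene families that are silent in most tissues varied with the library. Keratin-associated protein genes had 13, 14 and 7 of 24 promoters marked with A-485, against 15, 14 and 0 with DMSO. Olfactory receptor genes had 14, 17 and 7 of 50 marked with A-485, against 17, 18 and 4 with DMSO. Clustered protocadherins, the cell identity molecules of neurons, had 3, 3 and 1 of 46 marked with A-485, against 2, 3 and 0 with DMSO. None of the first 2 families was marked in all 6 libraries at any member.

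Genes that are active in dividing cells were free of the mark in both treatments, as a check of the target. Of 49 ribosomal protein promoters, RPL37 alone was marked, with 16.7% in A-485 replicate 4, and none of 40 DNA replication promoters was marked in any library. Acetyltransferase and acetyl-lysine reader genes, the family of the targets of A-485, were unmarked at all 20 promoters. Of 38 Polycomb complex genes, SCML1 was marked, with 56.4%, 63.1% and 0% with A-485, against 70%, 63.1% and 0% with DMSO. Immediate early and p300/CBP-linked genes had 4, 4 and 5 of 31 promoters marked with A-485, against 5, 5 and 1 with DMSO. MYCN, a MYC family factor, was the one in all 6 libraries, with 63.3%, 63.3% and 38.3% with A-485, against 80%, 53.3% and 26.7% with DMSO. Pluripotency and germline genes had 4 of 24 marked in each A-485 library, against 4, 4 and 0 with DMSO. Tumour suppressor and growth control genes had 6, 6 and 5 of 24 marked with A-485, against 6, 5 and 1 with DMSO, and the adhesion gene CDH13 was the most covered. Of the genes the study displayed after A-485, DLX1, DLX2 and CYP26A1 had 0% in all 6 libraries. The FOXP2 start used here, also at 0%, lies outside the stretch that was displayed. ITGB8, an integrin subunit, had 26.7%, 0% and 0% with A-485, against 16.7%, 0% and 0% with DMSO.

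**Figure D3:**
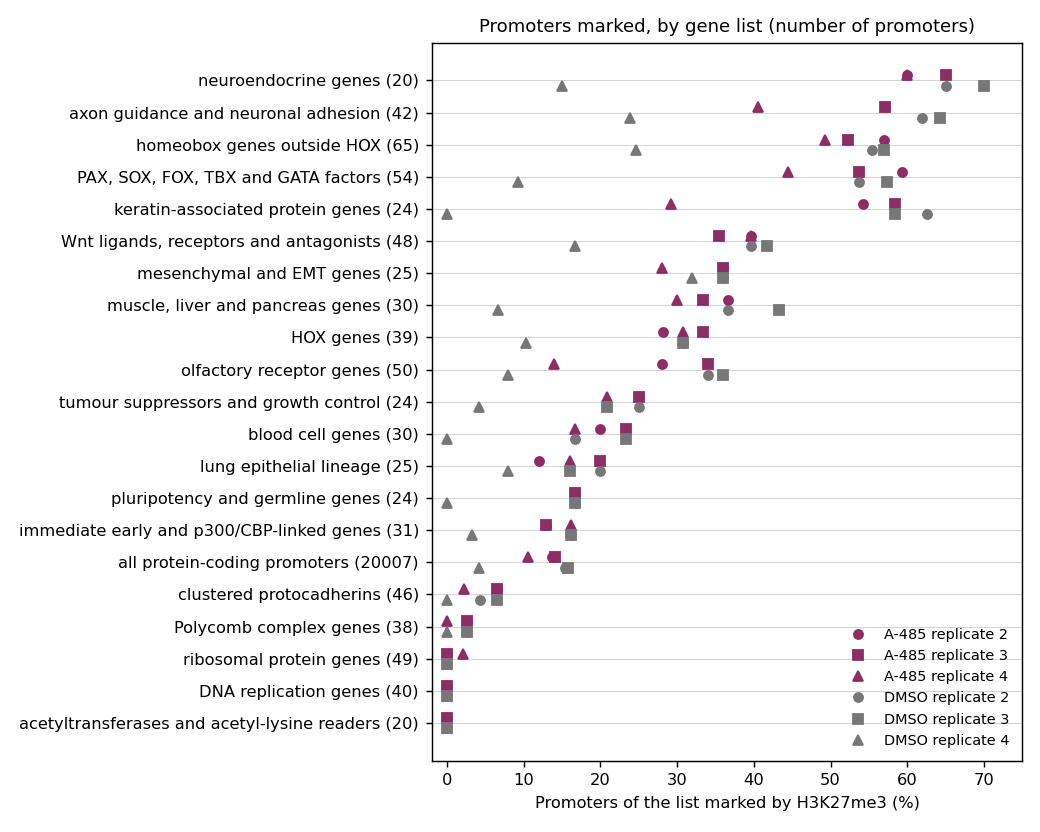
Share of the promoters of each gene list that were marked by H3K27me3 (%), with A-485 in purple above DMSO in grey and 1 marker shape per replicate number; the number of promoters follows the name of the list. In most lists the points of replicates 2 and 3 of both treatments lie together and DMSO replicate 4 lies lowest, while ribosomal protein, DNA replication and acetyltransferase genes lie at or near 0.

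Read counts, summed over each library's own domains, were then compared in the 8822 merged regions that held a domain in every library, of 164649 merged regions in all. A region without a domain in any 1 library did not enter, so a full loss or gain could not be called in this fit. With edgeR's quasi-likelihood test, replicate number as a block and normalisation by the trimmed mean of M-values (TMM), 0 regions were called higher and 0 lower with A-485 (adjusted p under 0.05, absolute log2 fold change 0.5 or more), or 0% of those tested in each direction. The smallest adjusted p was 0.882. At an unadjusted p under 0.05, 21 regions were higher and 246 lower, together 3.03% of those tested. DESeq2 with the same block called 0 higher and 1 lower (0.0113%), and edgeR's likelihood ratio test 0 higher and 13 lower (0.147%). The median 95% interval reached 0.74 to either side on the log2 scale, and for 50.0% of the regions it excluded a change of more than 2-fold in either direction, against 25.9% without the block. Because each library contributes the reads of what was called in it, a fold here combines a change in called length with one in density. With called length as an offset, 0 regions had an unadjusted p under 0.05 by edgeR, the median interval reached 1.07 to either side, and 1.11% of the regions excluded a 2-fold change. TMM sets the typical region to no change, so a shift common to all regions would not appear in this fit. Where a domain in at least 4 of the 6 libraries was enough, 0 of 50306 regions were called in either direction. There the median interval reached 2.43 to either side and 2.53% of the regions excluded a 2-fold change, so that fit could show little.

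The regions with most domain had folds near 0 in these sums. ZNF536, a zinc finger repressor in neurons, lay in the widest region with a promoter, chr19:30219601-30450000, where domains covered 213600, 220400 and 166500 bp with A-485, against 223400, 226400 and 106000 bp with DMSO. Reads in it differed by 0.08 on the log2 scale (95% interval −0.13 to 0.29). IRX2, whose promoter is printed above, lay in the region chr5:2651001-2781700 with 121300, 126300 and 80300 bp with A-485, against 127700, 129300 and 40200 bp with DMSO, and differed by 0.17 (−0.08 to 0.42). PCDH8, a protocadherin, differed by 0.07 (−0.18 to 0.33), TSHZ3, a teashirt zinc finger factor, by 0.16 (−0.08 to 0.40), and C20orf85 by 0.17 (−0.08 to 0.43). GDNF, a neurotrophic factor, differed by −0.02 (−0.35 to 0.32) and EGLN3, a prolyl hydroxylase of the hypoxia response, by −0.03 (−0.33 to 0.27). The remaining members of the 10 widest, at ANKH, BHLHE41 with SSPN, and OLFM4, lay between −0.07 and −0.03. For these 10 regions the intervals on the summed reads reach at most 0.43 on the log2 scale in either direction. With called length as an offset, ZNF536 stood at −0.10 ± 0.43 and IRX2 at −0.12 ± 0.45 (SE).

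The promoter regions with the smallest unadjusted p among those lower with A-485 were narrow ones. TRIM31, a ubiquitin ligase gene, lay in a region with 500, 600 and 1000 bp of domain with A-485, against 2000, 2000 and 1500 bp with DMSO, and 15, 17 and 19 reads with A-485, against 89, 68 and 34 with DMSO. Its log2 fold change was −1.56 ± 0.37 (SE; edgeR adjusted p = 0.882). SP9, a factor of interneuron development, had 12, 30 and 107 reads with A-485, against 131, 122 and 84 with DMSO (−1.39 ± 0.34), where replicate 4 went the other way in raw reads. KCNIP1, a regulator of potassium channels, had 24, 34 and 18 reads with A-485, against 229, 109 and 14 with DMSO (−1.33 ± 0.40). VCAM1, a vascular adhesion molecule, gave −1.56 ± 0.47 and ELOVL7, a fatty acid elongase, −1.34 ± 0.42. All 5 had an adjusted p of 0.882, so no difference passed the test. The called length moved with these folds, as in VCAM1 with 900, 5400 and 500 bp with A-485, against 5300, 8200 and 1400 bp with DMSO, and ELOVL7 with 400, 1300 and 900 bp with A-485, against 2400, 2800 and 1100 bp with DMSO. With called length as an offset TRIM31 stood at −0.12 ± 0.59 (SE), SP9 at 0.08 ± 0.57, KCNIP1 at 0.26 ± 0.57, VCAM1 at −0.09 ± 0.57 and ELOVL7 at −0.04 ± 0.58, so the lower sums went with shorter domains, and a difference in reads per base was not detectable.

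Among the regions higher with A-485 the smallest unadjusted p belonged to FHL2, a LIM domain cofactor, with 2000, 2500 and 1800 bp of domain with A-485, against 2100, 1500 and 700 bp with DMSO, and a log2 fold change of 0.74 ± 0.32 (SE). IRX1, a homeobox factor, had 62300, 61000 and 27900 bp with A-485, against 63500, 63800 and 7800 bp with DMSO (0.41 ± 0.19). SOX14, a factor of the developing brain, had 13100, 13700 and 8500 bp with A-485, against 14000, 14000 and 1500 bp with DMSO (0.68 ± 0.33). MOXD1, a monooxygenase gene, gave 0.61 ± 0.29 and DIO3, the deiodinase that inactivates thyroid hormone, 0.66 ± 0.34. In IRX1 and SOX14 the widths of replicates 2 and 3 were nearly the same in both treatments and the difference in width lay in DMSO replicate 4. None passed the test (edgeR adjusted p = 0.882 for each), and with called length as an offset FHL2 stood at 0.13 ± 0.55 (SE), IRX1 at −0.15 ± 0.48 and SOX14 at −0.02 ± 0.52.

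**Figure D4:**
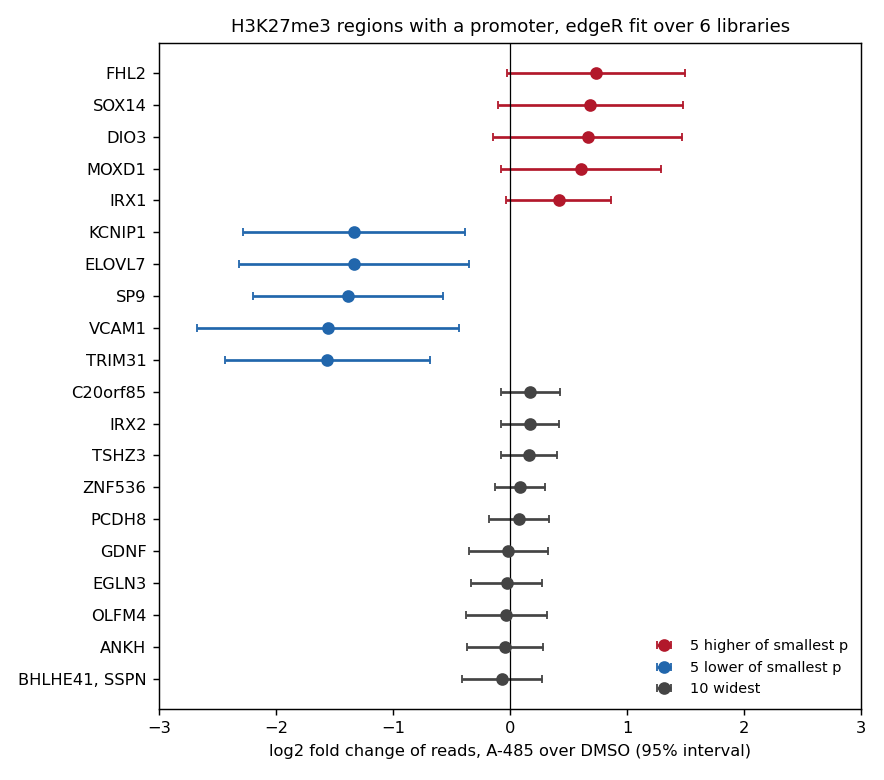
Log2 fold change of the reads summed over each library's own domains, A-485 over DMSO, with its 95% interval from edgeR, in 20 H3K27me3 regions with a promoter: the 5 of smallest unadjusted p among those higher, the 5 among those lower and the 10 widest. The widest regions sit at −0.07 to 0.17 with short intervals, and the lower ones, such as TRIM31 at −1.56, have long ones.

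The single region called by DESeq2, which the likelihood ratio test also called, held no promoter. At chr12:24677301-24682500 domains covered 300, 500 and 400 bp with A-485, against 4700, 2800 and 1800 bp with DMSO, with 11, 15 and 13 reads with A-485, against 197, 85 and 44 with DMSO. Its log2 fold change was −2.56 ± 0.39 (SE) in the quasi-likelihood fit, where the adjusted p was 0.882, and the adjusted p was 7.38e-04 by DESeq2. With called length as an offset it was 0.30 ± 0.61. The other 12 regions of the likelihood ratio test lay between −1.86 and −1.47, and none of the 13 held a promoter.

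Without replicate 4, a region on chromosome 14 was the one called of 45174 tested (0.00221% higher, 0% lower). At an unadjusted p under 0.05, 1461 were higher and 1498 lower, together 6.55% of those tested. The called region spans chr14:36716601-36745500 in SLC25A21, a mitochondrial carrier gene. It had 18800 and 27500 bp of domain with A-485, against 12600 and 12800 bp with DMSO in replicates 2 and 3. It held 717 and 1117 reads with A-485, against 853 and 670 with DMSO, a log2 fold change of 1.2 ± 0.11 (SE, edgeR adjusted p = 6.07e-04). With all listed domains counted, the wider region chr14:36681301-36755500 had 1972 and 2741 reads with A-485, against 4652 and 3640 with DMSO, and the log2 fold change was 0.14 ± 0.07 (edgeR adjusted p = 0.787). In the fit of all 6 libraries the region was at 0.58 ± 0.39. The call was also lost without the replicate block, where the smallest edgeR adjusted p of any region was 0.999, and when DMSO replicate 4 alone was left out, where it was 0.0565.

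The same locus held the longest stretch covered with A-485 alone. Over chr14:36692201-36708000, also in SLC25A21 and 30341 bp from the promoter of PAX9, a paired box factor, kept domains covered 11800, 15800 and 13000 bp with A-485, against 0, 0 and 400 bp with DMSO. The DMSO lists held domains over 15800, 15800 and 12900 bp there, and the widest of each had a log2 enrichment of 0.90, 0.99 and 0.84, just under the filter of 1, against 1.46, 1.29 and 1.31 with A-485. Input reads per kb were 14.1, 14.2 and 14.0 with A-485, against 20.2, 19.6 and 21.1 with DMSO. The locus was thus listed as enriched in both treatments. These input densities are not scaled for depth, and the A-485 input held 0.797 times the reads of the DMSO input at domains with the same borders. The part of the input in the difference was not tested. The mirror case was chr12:26296601-26300100 in SSPN, a muscle membrane gene, with 0 bp in every A-485 library, against 3500, 3500 and 3200 bp with DMSO, where the A-485 lists held 3500, 3200 and 3400 bp below the filter. Unscaled input reads per kb there were 17.7, 16.1 and 16.1 with A-485, against 17.0, 17.3 and 15.0 with DMSO. Of the 15 longest stretches in each direction all were listed in at least 1 library of both treatments. Some were listed over a small part, as at chr14:36129701-36131000, with 600 bp in A-485 replicate 4 alone of the A-485 lists. Unscaled A-485 input density lay below all DMSO values in 15 of 15 stretches of A-485 alone. It lay above all DMSO values in 10 of 15 stretches of DMSO alone. The lists of each treatment share a single input, so input densities within a treatment differ only by the borders of the listed domains. The stretches were chosen by a filter on enrichment over input, which favours a low input in the treatment that passed. These counts are therefore a description, and cannot give the part of the input.

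Over the whole genome, bases covered in all 3 A-485 and no DMSO library came to 0.370 Mb in 1474 stretches, and bases covered in all 3 DMSO and no A-485 library to 0.897 Mb in 3553 stretches. Of these, 51.5% of the A-485 bases lay under DMSO domains listed below the filter, and 17.6% of the DMSO bases under such A-485 domains. Bases covered in A-485 replicates 2 and 3 and in no DMSO library, replicate 4 included, came to 3.34 Mb. Those covered in DMSO replicates 2 and 3 and in no A-485 library, replicate 4 included, came to 30.4 Mb. All 4 libraries of replicates 2 and 3 shared 95 Mb. Territory particular to A-485 was thus small in either set.

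The study asked whether H3K27ac keeps the methyl mark away, so H3K27me3 was read at sites that lost H3K27ac. The H3K27ac lists of replicates 2 and 4 gave 5047 sites present with DMSO in both and with A-485 in neither (lost), and 9040 sites present in all 4 (kept). H3K27me3 domains covered 1.44%, 1.41% and 1.22% of the bases of lost sites with A-485, against 1.81%, 1.93% and 0.293% with DMSO. They covered 0.197%, 0.203% and 0.326% of the bases of kept sites with A-485, against 0.208%, 0.205% and 0.0747% with DMSO. The mean difference was 0.0145 percentage points at lost sites and 0.0793 at kept sites (p = 1 for each, exact sign-flip permutation test over 3 pairs). The difference between lost and kept sites was −0.0648 points (p = 1, exact sign-flip permutation test). It lay between −0.434 without replicate 4 and 0.158 without replicate 3, and was above 0 in 5 of 8 alternatives, so it had no stable sign. Without replicate 4 the difference at lost sites was −0.440 points (p = 0.5, exact sign-flip permutation test, the smallest that 2 pairs allow). The H3K27ac lists of replicate 4 carried the input of the other treatment. Whether inputs or labels were exchanged cannot be told from the files, and exchanged labels would change which sites count as lost or kept. H3K27ac covered 20.2 and 23.2 Mb with A-485, against 44.7 and 153 Mb with DMSO in replicates 2 and 4, as labelled. With sites taken from replicate 2 alone the difference at lost sites was −0.0767 points.

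**Figure D5:**
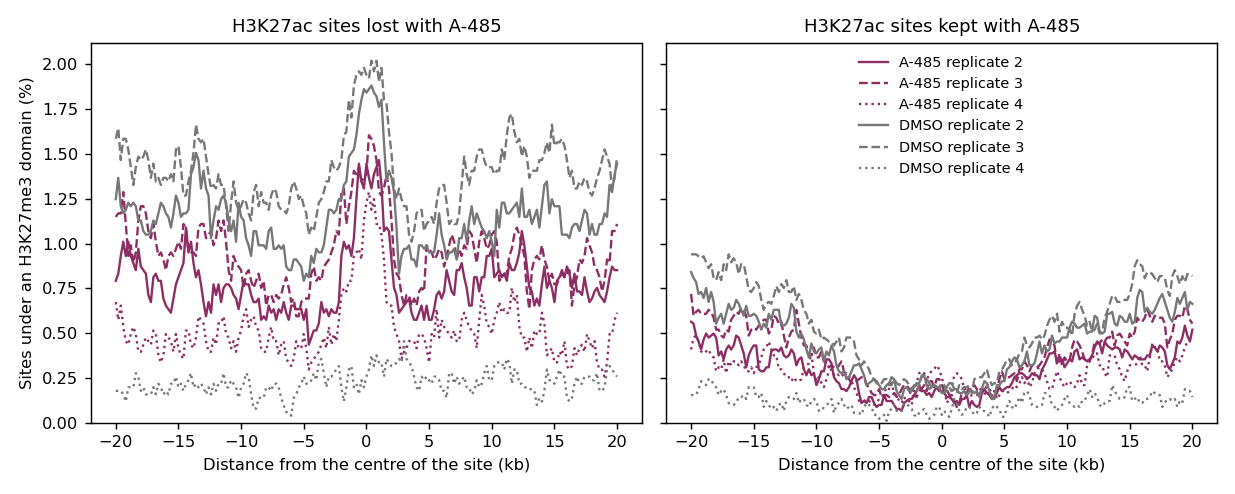
Share of H3K27ac sites that lay under an H3K27me3 domain (%) by distance from the centre of the site (kb), for 5047 sites lost (left) and 9040 kept (right) with A-485, 1 line per H3K27me3 library. At the centre of lost sites the A-485 libraries lie at 1.45%, 1.39% and 1.23%, against 1.84%, 1.94% and 0.258% with DMSO, and all libraries lie under 0.3% at the centre of kept sites.

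Few lost sites met H3K27me3 at all. No library had a domain at 4804 of the 5047 lost sites, and no lost site had the mark in all 3 A-485 and no DMSO library, against 1 site with it in all 3 DMSO and no A-485 library. The mark was present in 2 A-485 and no DMSO libraries at 7 lost sites, against 13 with 2 DMSO and no A-485 libraries. At kept sites these counts were 3 and 3. Of the 7, 5 held the promoters of FRZB, a Wnt antagonist, NT5E, an ecto-nucleotidase, SULF2, a heparan sulfatase, NCAM2, a neural adhesion molecule, and VWA3B. At FRZB the covered length was 0, 700 and 700 bp with A-485, against 0 bp in all DMSO libraries. These 5 were named after their values were seen.

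Among lost sites with a promoter and H3K27me3 in all A-485 libraries, the first 5 in genome order also carried it in at least 1 DMSO library. FOXD3, a neural crest factor, had 1400, 1800 and 700 bp of domain in the site with A-485, against 1900, 2600 and 0 bp with DMSO. NTNG1, an axon guidance gene, had 2200, 2200 and 2000 bp with A-485, against 2200, 2200 and 300 bp with DMSO. SLC30A3, a zinc transporter of synaptic vesicles, had 2100, 1100 and 3100 bp with A-485, against 3100, 2100 and 0 bp with DMSO. In all 3 the deeper DMSO libraries had at least as much domain as the A-485 libraries of the same number. TENT5C, a poly(A) polymerase gene, had 400, 900 and 900 bp with A-485, against 1000, 400 and 0 bp with DMSO. DNM3, a dynamin, had 300, 1000 and 1000 bp with A-485, against 0, 1000 and 0 bp with DMSO. At TENT5C and DNM3 the 2 treatments overlapped.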

How the data were processed

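H3K27me3 was compared between 3 A-485 and 3 DMSO libraries of parental NCI-H661 cells, grouped by sample label. The authors aligned reads to hg38, and the submitters' processing notes name Trim Galore 0.6.6, BWA 0.7.13, SAMtools 1.9, Picard 2.6.0 and deepTools 3.5.0. The deposited lists were called per library with EPIC2 in 100 bp bins against an input and hold, per domain, ChIP and input read counts, a p-value, an FDR, a score and a log2 fold over input. Domains with log2 above 1 and FDR under 0.05 were kept, as in the study's methods, but no blacklist was applied and the mouse reads were not used, so a change in total H3K27me3 was not measured. Domain reads per library ranged from 498618 to 12005354, and their number limits the precision of each value. Domains of the 6 libraries were merged, and counts of own domains were tested in regions with a domain in all 6 and at least 10 reads on average, with edgeR 4.0.16 (R 4.3.3) and Benjamini-Hochberg adjustment. DESeq2 1.42.0 was an alternative. The code was tested on simulated data. Single values per library were compared by exact sign-flip tests in Python 3.11.15 with scipy 1.17.1. Samples were paired by number. Deviations from the group means correlated at 0.484, 0.366 and 0.543 within numbers 2, 3 and 4, against at most 0.346, 0.217 and −0.487 with another number. Replicate 4 held the fewest domain reads in both treatments, and the part of library strength in these correlations was not tested. Promoters are GENCODE 44 protein-coding starts ±1500 bp, and RefSeq gave the sequences. Named genes were the 5 promoter regions of smallest p in each direction, all promoters lost or gained, the 10 widest regions, the most covered list members, the genes the study displayed and 5 promoters at lost H3K27ac sites. The samples, gene lists and tests were chosen with earlier results of these data known.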

Additional observations from a re-analysis of the deposited data

How the results depend on the processing

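With all 6 libraries and no replicate block, edgeR's quasi-likelihood test called 0 regions higher and 0 lower, as with the block. At an unadjusted p under 0.05, 5 were higher and 86 lower, together 1.03% of those tested. Over the other settings for regions, the count called higher was 0 to 1 when a replicate was left out, and 1 region was called lower by DESeq2 and 13 by the likelihood ratio test. A filter on low counts removed no region. Promoters marked differed by 198 on average and by −335 to 466 when a replicate was left out, with −335 without replicate 4. Promoters lost numbered 4, with 2 at a minimum of 1000 bp, 7 in windows of 5000 bp, 10 at a log2 above 2, 8 with equal numbers of peaks, and 9 to 131 with a replicate left out. All 4 were lost with all listed peaks or a replicate left out. At a log2 above 2 it was 1 of them, and 0 at 1000 bp or with equal numbers of peaks. Promoters gained numbered 5, with 3 at a minimum of 1 bp, 0 at 1000 bp, 1 with all listed peaks, 57 at a log2 above 2, and 23 to 44 with a replicate left out. All 5 were gained with a replicate left out, 3 at a log2 above 2, 1 with all listed peaks and 0 with equal numbers of peaks. At lost H3K27ac sites the difference of 0.0145 points became −0.0767 with H3K27ac replicate 2 alone, −0.15 with 5000 bp on each side and −0.440 to 0.278 with a replicate left out. At kept sites it was −0.00664 without replicate 4 and up to 0.125 with another left out. The cause of these changes was not tested. Covered length, median width, reads per kb and the share in long domains kept their direction under all 7 alternatives, but the difference of −40.5 Mb in covered length became −15.2 Mb at a log2 above 2 and −80.5 Mb without replicate 4, and that of −3.74 points in the share in long domains became −0.0848 points with domains joined. The fits without replicate 4 or DMSO replicate 4 that also dropped the block or used all listed peaks, and H3K27ac replicate 4 alone, were chosen after seeing the data. The weak DMSO replicate 4 limits every comparison over 3 pairs.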

Other observations

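The part of the DMSO territory covered with A-485 differed between chromosomes. In replicates 2 and 3 the A-485 libraries covered 83.7% and 84.2% of the DMSO length on chromosome 19, the highest of 23 chromosomes, and 57.0% and 54.9% on chromosome X, the lowest. Chromosome 5, which carries the IRX1, IRX2 and IRX4 domains, stood at 74.3% and 75.4%, and chromosome 3 at 57.8% and 61.6%. Across the 23 chromosomes the percentage had a Spearman correlation of 0.646 and 0.693 with the reads per kb of the DMSO input in replicates 2 and 3, and of −0.853 in replicate 4. The chromosomes of a library share its depth and input, so this is a description, and the part of copy number or input in it was not tested.

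Around the 2337 promoters marked in replicates 2 and 3 of both treatments, domains were most frequent near the start site, and more so at 1000 bp downstream than at 1000 bp upstream in all 6 libraries. At the start, 72.0%, 75.2% and 36.5% of these promoters lay under a domain with A-485, against 84.3%, 85.6% and 9.54% with DMSO in replicates 2, 3 and 4. At 10000 bp upstream the shares were 20.1%, 25.7% and 7.10% with A-485, against 30.5%, 35.0% and 2.78% with DMSO. The promoters were chosen on 4 of these libraries, so the values are given as a description.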
